A study of Mus musculus with 11 samples.

Results

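Excitatory neuron identity genes were followed in single nuclei of mouse brain. The 9 genes were listed by name and not by a cut-off on a measurement, with earlier results of these data known. They were Slc17a7, Slc17a6, Camk2a, Neurod6, Cux2, Rorb, Foxp2, Tle4 and Prox1, of 25938 genes in the count matrix. Their counts were taken per nucleus and summed per library in the 5 clusters numbered 0, 1, 2, 5 and 9, which are the neuronal clusters among the 10 that the authors deposited. These hold 76428 of 110304 nuclei, or 69.3%. For each library and cluster, the level of a gene is its share of all unique molecular identifiers (UMIs, each standing for 1 captured RNA molecule) of those nuclei, scaled in the usual way to CPM. A nucleus with at least 1 UMI of a gene is called a carrier of it.

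Mice of all groups, the control included, carried a knock-in of the human transferrin receptor that the labels give as hTfR KI HOM, and received 4 intravenous doses. Tissue was taken 72 h after the last dose. OTV:Malat1 (60 mg/kg, n = 3 libraries) couples an antisense oligonucleotide (ASO) to a carrier that binds the transferrin receptor; its target, Malat1, is a long non-coding RNA retained in the nucleus. The other groups were nonTV:Malat1 (60 mg/kg, n = 3), an ASO conjugate without receptor binding, Malat1 ASO (2.5 mg/kg of free oligonucleotide, n = 2), and ATV:BACE1 (57 mg/kg, n = 3), a receptor binder without ASO that served as the control. Libraries carry the replicate numbers 1, 4 and 5. Replicates 1 and 5 were 2.33 months old and replicate 4 was 2.57 months old, and replicate 1 was female while replicates 4 and 5 were male, so that sex, age and batch cannot be told apart from the number. The labels give the region as posterior brain and the deposited metadata as cortex. The labels do not say whether the libraries of a group came from separate animals, so p-values measure the spread between these libraries.

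Glutamatergic neurons load transmitter into vesicles through the transporters encoded by Slc17a7, used mainly in cortex and hippocampus, and Slc17a6, used mainly in thalamus, midbrain and hindbrain. Camk2a, a calcium-dependent kinase of the synapse, and Neurod6, a transcription factor, mark forebrain excitatory neurons, although Camk2a is also made by striatal projection neurons. The remaining genes encode regulators that divide these neurons by layer or region. Cux2 is a homeodomain factor of upper cortical layers. Rorb is a nuclear receptor of layer 4, of thalamus and of astrocytes. Foxp2 is a forkhead factor of layer 6, striatum and thalamus. Tle4 is a corepressor of layer 6 corticothalamic neurons, and Prox1 is a homeobox factor of dentate granule cells, thalamus, some interneurons and the oligodendrocyte lineage. On the mouse build mm10 (GENCODE annotation) Slc17a7 lies at chr7:45163921-45176139 and Slc17a6 at chr7:51621830-51671126. Neurod6 lies at chr6:55677818-55681263, Foxp2 at chr6:14901349-15441977, Cux2 at chr5:121857962-122050415, Prox1 at chr1:190118035-190170827, Rorb at chr19:18930609-19111196 and Tle4 at chr19:14448072-14598183. All are protein-coding genes.

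The neuronal clusters held 4922 to 11137 nuclei and 28911428 to 37701355 UMIs per library, with medians of 2561 to 5225 UMIs per nucleus. The library with the most nuclei, OTV:Malat1 replicate 5, had the lowest median, and OTV:Malat1 replicate 4, with the fewest nuclei, had the highest. Called doublets, droplets that probably held more than 1 nucleus, made up 11.8% of cluster 0, 3.0% of cluster 1, 21.2% of cluster 2, 35.7% of cluster 5 and 41% of cluster 9. The cell class deposited with each nucleus was neuron for 97.2% to 99.8% of clusters 0, 1, 2 and 9 but for 71.5% of cluster 5, where 15.2% were astrocytes and 13.0% oligodendrocytes. In all, 1495 barcodes occurred in more than 1 library, on 3011 nuclei or 2.73% of the series. In counts summed over a cluster, fewer nuclei carrying a gene and less of its RNA per nucleus cannot be told apart.

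Cluster 0 was where the cortical transmitter gene was highest. Slc17a7 reached 155 ± 19.9 CPM there (SD, n = 11 libraries), against 82.0 ± 6.8 in cluster 5, 38.6 ± 8.4 in cluster 2, 26.7 ± 5.7 in cluster 1 and 23.1 ± 6.0 in cluster 9. The library ranges separated cluster 0 from cluster 5 and cluster 5 from cluster 2, while those of clusters 2, 1 and 9 overlapped. Compared inside each library, cluster 2 was above cluster 1 in 11 of 11 libraries and cluster 1 above cluster 9 in 10 of 11. After each nucleus was thinned to 1000 UMIs, with shallower nuclei left out, 15.1% of the nuclei of cluster 0 kept a UMI of Slc17a7. The share was 5.65% in cluster 5 and 2.64% to 3.40% in clusters 1, 2 and 9. Oligodendrocytes (cluster 3) and astrocytes (cluster 4), which should lack the transporter, gave 4.52% and 4.42% at the same depth. The Slc17a7 UMIs of clusters 1, 2 and 9 were thus at or below the background of free RNA, and those of cluster 5 were little above it. Median depths before thinning were 902 and 1395 UMIs in the glial clusters against 2870 to 4477 in the neuronal ones.

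By library, Slc17a7 in cluster 0 stood at 166, 141 and 134 CPM for replicates 1, 4 and 5 of ATV:BACE1, at 170, 145 and 132 in nonTV:Malat1, at 195, 141 and 155 in OTV:Malat1 and at 177 and 147 in Malat1 ASO replicates 1 and 5. Replicate 1 was the highest of its group each time, and the 4 libraries with that number lay above the other 7. The groups overlapped.

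Slc17a6, the transporter of thalamic and other subcortical neurons, had a different order. It was highest in cluster 1 at 64.0 ± 6.7 CPM (SD, n = 11, range 57.5 to 78.1), followed by cluster 9 at 46.1 ± 12.1, cluster 5 at 21.5 ± 4.3, cluster 0 at 18.4 ± 1.5 and cluster 2 at 11 ± 2.7. Neighbours in this order overlapped in their library ranges. Compared inside each library, cluster 1 was above cluster 9, cluster 9 above cluster 5 and cluster 0 above cluster 2 in 11 of 11 libraries. Cluster 5 was above cluster 0 in 9 of 11. At 1000 UMIs the gene was found in 5.27% of the nuclei of cluster 1 and 3.51% of cluster 9. It was found in 1.78% of cluster 0, 1.76% of cluster 5 and 0.80% of cluster 2, beside 1.61% of oligodendrocytes and 1.13% of astrocytes. Only clusters 1 and 9 therefore stood clear of the glial background for this transporter.

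Camk2a was found in all 5 clusters above its level in glia. It averaged 640 ± 65.0 CPM in cluster 0, 448 ± 41.2 in cluster 2, 348 ± 23.3 in cluster 5, 299 ± 17.3 in cluster 1 and 251 ± 31.2 in cluster 9 (SD, n = 11). Clusters 0, 2 and 5 were separated by their library ranges. At 1000 UMIs it was carried by 46.4%, 23.9%, 35.4%, 18.4% and 21.4% of the nuclei of clusters 0, 1, 2, 5 and 9, against 6.35% of oligodendrocytes and 10.2% of astrocytes. Neurod6 was narrower. It averaged 46.1 ± 7.2 CPM in cluster 0 and 23.0 in cluster 5, with separate library ranges, and 11.1, 5.3 and 4.5 CPM in clusters 2, 1 and 9. Its share at 1000 UMIs was 4.73% in cluster 0 and 1.60% in cluster 5, while the 0.58% to 0.83% of clusters 1, 2 and 9 did not exceed the 1.13% and 1.20% of oligodendrocytes and astrocytes.

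The regulators of layer and region differed in the cluster where they were highest. Foxp2 was highest in cluster 2 at 426 ± 51.6 CPM (SD, n = 11, range 354 to 503), above every library of cluster 1 at 261 ± 20.6, and it was at 197 ± 32.6 in cluster 9, 132 ± 13.1 in cluster 0 and 121 ± 14.1 in cluster 5. Tle4 also led in cluster 2 at 252 ± 35.9 CPM, followed by cluster 5 at 182 ± 21.9 and cluster 0 at 153 ± 11.4, and clusters 1 and 9 lay below them at 114 ± 5.6 and 109 ± 12.8. In cluster 2 the Tle4 levels of replicate 1 (266, 301, 313 and 286 CPM in ATV:BACE1, nonTV:Malat1, OTV:Malat1 and Malat1 ASO) exceeded the 200 to 258 CPM of the other libraries, a split by replicate number and not by group.

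Rorb was highest in cluster 5 at 497 ± 32.0 CPM (range 444 to 558), apart from cluster 0 at 263 ± 42.1 (range 176 to 321), cluster 1 at 187 ± 28.1, cluster 9 at 170 ± 64.4 and cluster 2 at 122 ± 29.9. Astrocytes, which make this nuclear receptor themselves, stood at 1420 CPM, and cluster 5 carried 2059 CPM of the astrocyte marker list against 8658 in the astrocyte cluster and 194 to 433 in the other neuronal clusters. Tle4 was likewise higher in astrocytes, at 326 CPM, than in any neuronal cluster. Cux2 differed little among clusters 0, 1, 9 and 5, with means of 152 ± 12.5, 144 ± 14.2, 141 ± 21.8 and 134 ± 13.5 CPM and overlapping ranges, and was lower in cluster 2 at 70.0 ± 9.2, apart from the rest. Oligodendrocytes held 81.2 CPM of it, and at 1000 UMIs 8.23% of them carried it, against 4.83% of cluster 2 and 11.9% to 12.8% of the other neuronal clusters. Prox1 was highest in cluster 9 at 87.6 ± 14.9 CPM and in cluster 1 at 56.2 ± 7.1, with 36.4 ± 6.0 in cluster 5, 22.1 ± 3.0 in cluster 0 and 15.3 ± 5.2 in cluster 2. Oligodendrocytes held 203 CPM of Prox1 and astrocytes 16.8, and the oligodendrocyte list (Mbp, St18 and others) summed to 3153 CPM in cluster 9 against 285 to 1390 in the other neuronal clusters. At 1000 UMIs Prox1 was found in 8.36% of cluster 9 and 4.60% of cluster 1, while the 1.17% of cluster 2 did not exceed the 1.42% of astrocytes. The part of this glial RNA in the Rorb level of cluster 5 and the Prox1 level of cluster 9 was not tested.

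**Figure D1:**
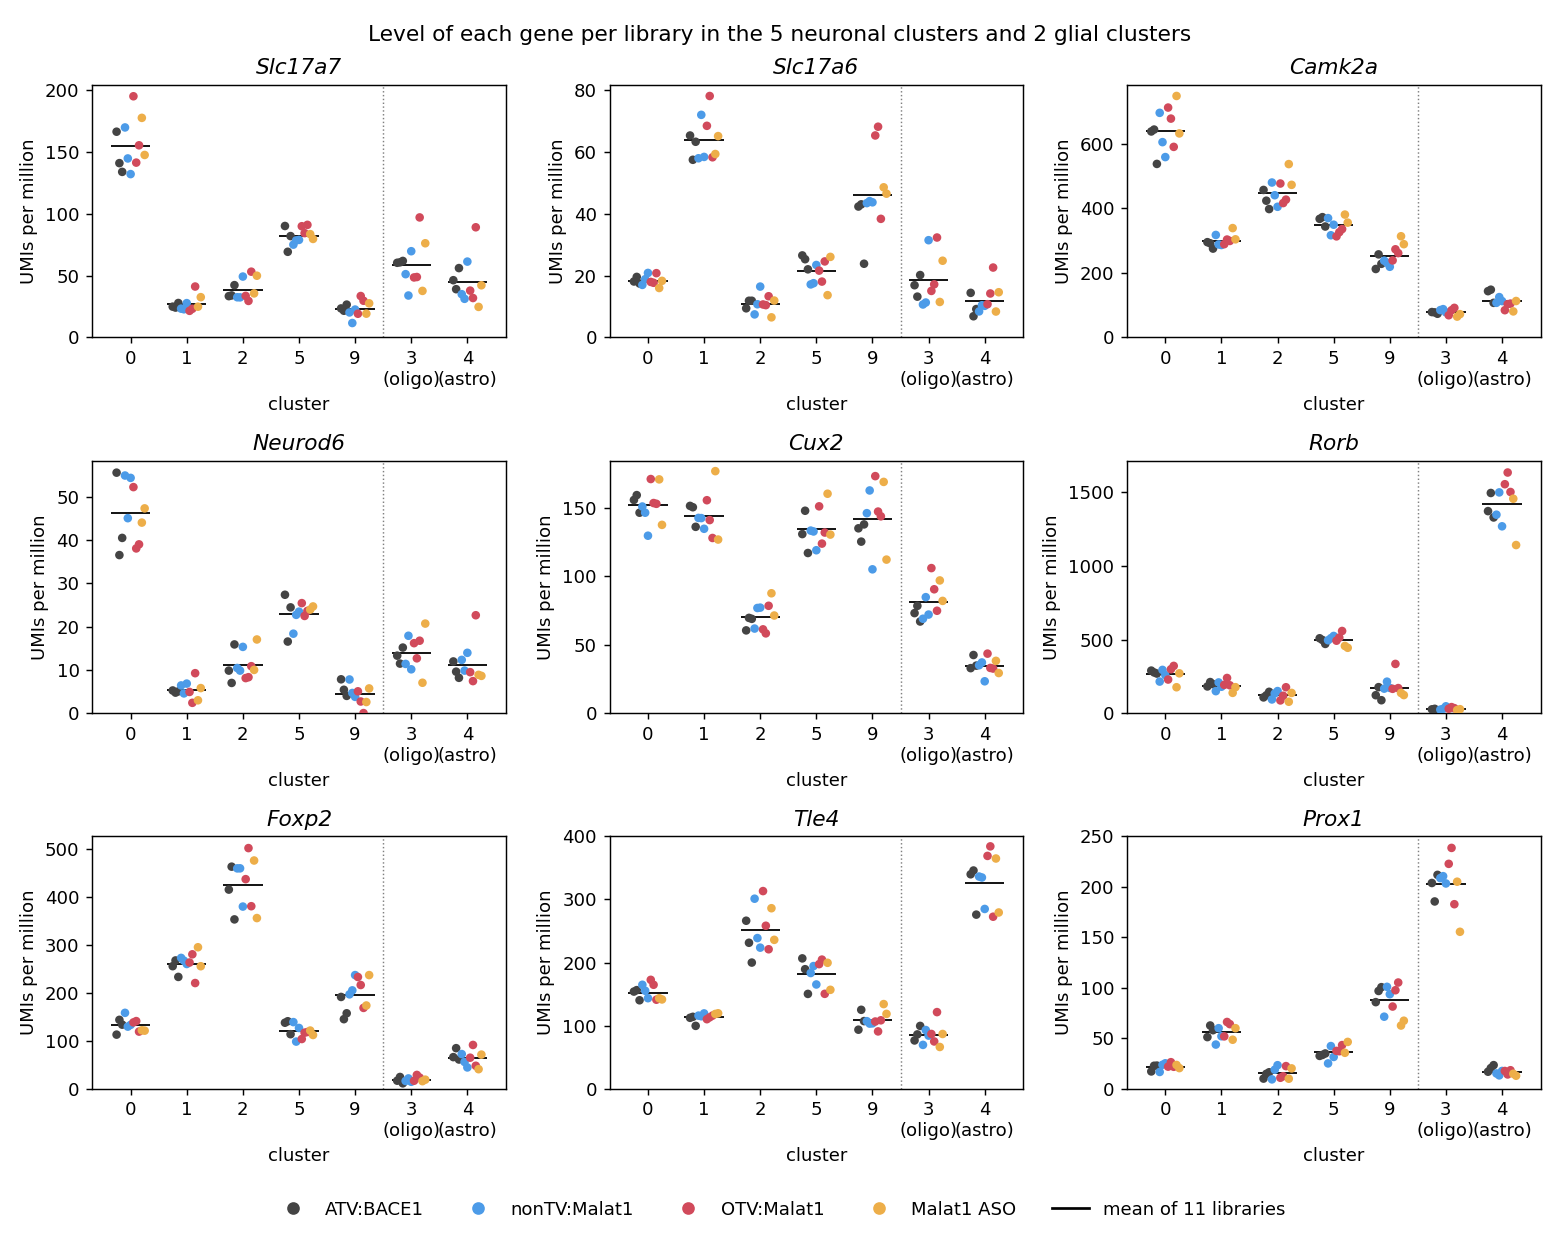
Level of each of the 9 genes, in CPM, in the 5 neuronal clusters and in the oligodendrocyte (3) and astrocyte (4) clusters. Each point is 1 of 11 libraries, coloured by group, and the line is their mean. Slc17a7 and Neurod6 peak in cluster 0, Slc17a6 in cluster 1, Foxp2 in cluster 2 and Prox1, among neurons, in cluster 9, while Rorb at 1420 and Tle4 at 326 are highest in astrocytes.

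Marker lists put these levels into a regional frame. In cluster 0 the excitatory list without the 9 genes (Tbr1, Neurod2 and others) summed to 350 CPM, against 30 to 167 in the other neuronal clusters, and the layer 6 list (Hs3st4, Zfpm2 and others) to 1110 against 502 to 755. Other layer lists did not single out cluster 0: that of layers 2/3 was at 592 CPM there and 650 in cluster 9, that of layer 4 at 394 and 601 in cluster 1, and that of layer 5 at 485 and 627 in cluster 1. The striatal projection list stood at 1075 CPM in cluster 0. The excitatory reading of cluster 0 thus rests on Slc17a7, Neurod6, Camk2a and the excitatory and layer 6 lists. Cluster 2 carried 3994 CPM of the striatal projection list, led by Pde10a at 2953 and Rgs9 at 565 CPM, and 134 CPM of Gad2, an enzyme of GABA synthesis. The whole inhibitory list was at 1180 CPM in cluster 2, under clusters 1, 9 and 5 (3361, 2878 and 1309) and above cluster 0 (897). The high Foxp2, Tle4 and Camk2a of cluster 2 therefore went with striatal markers, and its Slc17a7, Slc17a6 and Neurod6 were at glial background.

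Cluster 1 held 3361 CPM of the inhibitory list (Adarb2 at 1675, Kcnc2 at 1054) and also the most of the thalamus list, 1411 CPM without Slc17a6 (Ntng1 at 1044, Tcf7l2 at 174, Lef1 at 123). Cluster 9 had a like profile, with 2878 CPM of the inhibitory and 1254 CPM of the thalamus list, beside its oligodendrocyte RNA. The thalamus list summed to 348 to 629 CPM in clusters 0, 2 and 5. The layer 4 list without Rorb was highest in cluster 1 at 601 CPM, of which Il1rapl2 made 554, so that this list did not follow Rorb between clusters. The dentate gyrus list without Prox1 ran from 117 to 278 CPM, led by Stxbp6, while its granule cell genes Dsp and C1ql2 were at about 1 CPM. The cerebellum list summed to 11 to 52 CPM and the midbrain and hindbrain list to 3 to 10 CPM. The label of posterior brain was thus not matched by cerebellar or hindbrain markers in these clusters.

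Counted by nuclei, transmitter genes split the neuronal clusters in the same way. Of 76428 neuronal nuclei, 14963 (19.6%) had a UMI of Slc17a7 and none of Slc17a6, Gad1 or Gad2, and 83.2% of these lay in cluster 0, where they were 39.7% of the nuclei. Slc17a6 without the other 3 genes was found in 3939 nuclei (5.15%), 62.2% of them in cluster 1. Gad1 or Gad2 without a transporter of glutamate was found in 20270 nuclei (26.5%), which made up 51.3% of cluster 2, 40.2% of cluster 1 and 6.27% of cluster 0. A further 1668 nuclei (2.18%) carried both transporters without a Gad gene, 6242 (8.17%) carried a Gad gene with a transporter, and 29346 (38.4%) carried none of the 4. The last class had a median of 2953 UMIs, against 4878 for the Slc17a7 and 4556 for the Slc17a6 class, so an absent UMI does not show an absent transcript.

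The carriers of each gene were deeper than the other neuronal nuclei. Median totals were 4613 to 5518 UMIs in the 9 carrier sets against 2501 to 3781 in the rest, and called doublets were more frequent, from 16.5% against 6.59% for Camk2a to 29.5% against 12% for Prox1. Camk2a was carried by 54855 nuclei (71.8%), Tle4 by 30955 (40.5%), Foxp2 by 24606 (32.2%), Cux2 by 24245 (31.7%), Rorb by 22765 (29.8%) and Slc17a7 by 21587 (28.2%). Prox1, Neurod6 and Slc17a6 were carried by 7459, 7387 and 7376 nuclei. A single UMI made the carrier in 79.5% of Neurod6 and 74.9% of Slc17a6 carriers but in 30.3% of Camk2a carriers. Cluster 0 held 78.3% of Neurod6 and 73.8% of Slc17a7 carriers, cluster 1 held 48.2% of Slc17a6 and 38.6% of Prox1 carriers, and cluster 2 held 38.9% of Foxp2 carriers.

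The genes most raised in carriers over all neuronal nuclei differed between the identity genes. The ranking used the mean over 11 libraries of the log2 ratio of CPM in carriers to CPM in the other nuclei, and every gene named here was higher in carriers in 11 of 11 libraries. The leading genes of Slc17a7 carriers included Tafa1 (1035 against 459 CPM), and those of Neurod6 carriers included Dkk3 (74.1 against 34.7). Tafa1 was also among the leading genes of Camk2a carriers. Slc17a6 carriers were led by Lef1, a factor of Wnt signalling found in thalamic neurons (201 against 21.7 CPM), Synpo2 (312 against 47.4), Plekhg1, Prkcd (69.7 against 12.9) and Tcf7l2 (269 against 54.1). Lef1 was the leading gene for Cux2, Rorb, Foxp2 and Prox1 as well. The leading genes of Rorb carriers also held the astrocyte genes Slc1a3 (104 against 26.8 CPM) and Mertk (54.9 against 12), whereas Tle4 carriers were led by Rgs9 of the striatal list (200 against 95.1), Hs3st4 (730 against 358) and Rarb. These are descriptions of nuclei that share libraries and differ in depth, and they carry no test.

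Within cluster 0 the layer genes sorted the nuclei. In pairs counted at 1000 UMIs per nucleus, 1164 nuclei held both Cux2 and Rorb, 1.63 times the product of the shares of each gene alone, and 1038 held both Foxp2 and Tle4, 2.36 times the product. Cux2 with Foxp2 was found in 152 nuclei, 0.37 times the product, Cux2 with Tle4 in 257 (0.47 times), Rorb with Foxp2 in 263 (0.46 times) and Rorb with Tle4 in 446 (0.59 times). The upper-layer and layer 4 genes thus went together, as did the layer 6 genes, and nuclei with a gene of both pairs were fewer than the product. Of Foxp2 carriers at this depth 32.2% also carried Tle4, compared with 13.7% of all nuclei of the cluster.

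Elsewhere the same genes paired otherwise. In cluster 2 the ratio for Foxp2 with Tle4 was 0.95, with 977 nuclei holding both, and in cluster 1 it was 0.64, with 217 nuclei. Rorb with Foxp2, under the product in cluster 0, was at 1.3 times the product in cluster 1, and Rorb with Slc17a6 was at 1.93 and Rorb with Prox1 at 2.09. In cluster 1 Slc17a6 with Gad1 was at 0.27 (33 nuclei) and Slc17a6 with Gad2 at 0.32 (50 nuclei), so that the transporter and the GABA enzymes lay mostly in different nuclei of the cluster. Over all 5 clusters Slc17a7 with Slc17a6 was at 0.77, with 124 nuclei holding both at this depth, and Slc17a7 with Neurod6 was at 1.98.

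**Figure D2:**
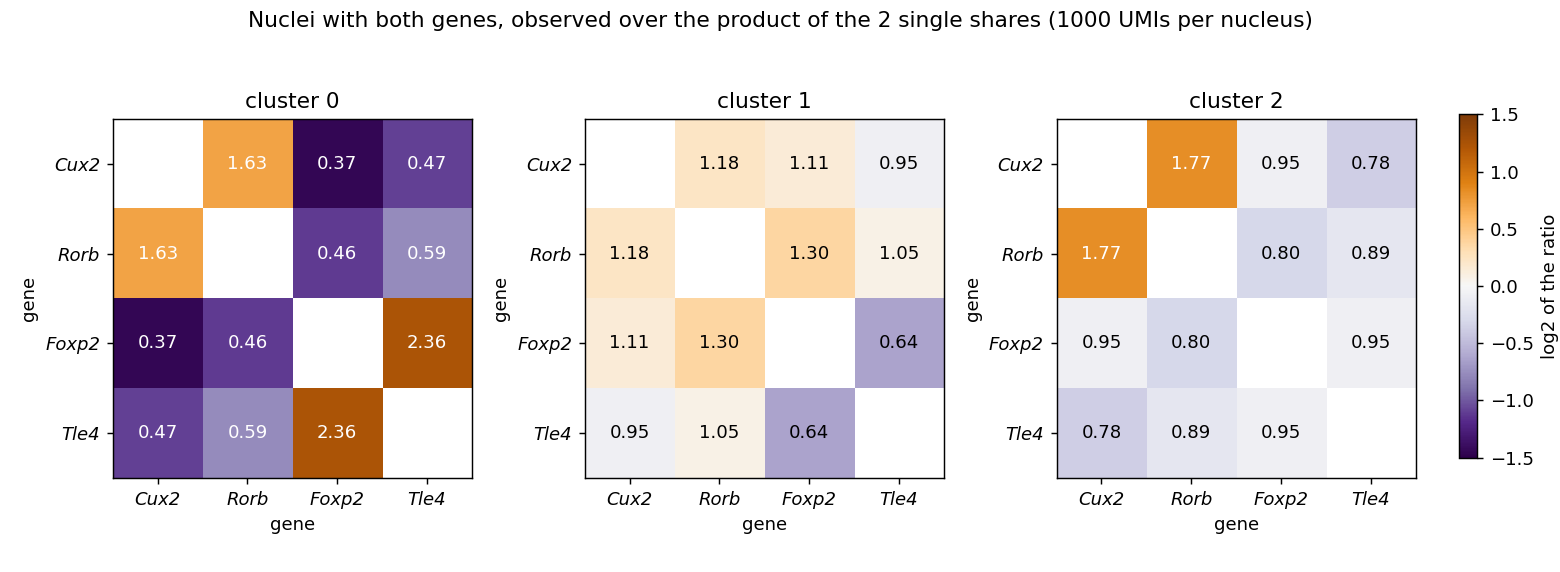
Nuclei holding both of a pair of layer genes, as a ratio to the product of the shares of the single genes, in clusters 0, 1 and 2 after thinning to 1000 UMIs per nucleus. The numbers are the ratios and the colour their log2. In cluster 0 Cux2 with Rorb (1.63) and Foxp2 with Tle4 (2.36) exceed 1 and the mixed pairs lie between 0.37 and 0.59, a pattern that clusters 1 and 2 do not show.

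The layer 6 list and several other layer markers followed the same division, while thalamic genes did not. In cluster 0, Cux2 carriers held 855 CPM of the layer 2/3 list without Cux2, against 390 in the other nuclei, and 657 against 1463 CPM of the layer 6 list. Cux1, the paralogue of Cux2, stood at 405 against 142 CPM and Rasgrf2 at 189 against 75.4. Rorb carriers of cluster 0 held 490 against 330 CPM of the layer 4 list without Rorb, including Rspo1 at 24.6 against 5.68 and Whrn at 29.6 against 11. They also held 689 against 267 CPM of the thalamus list, and 457 against 419 CPM of the astrocyte list. Foxp2 carriers held 2132 against 728 CPM of the layer 6 list without Foxp2 and Tle4, and Tle4 carriers 1673 against 641, with Syt6 at 56.1 against 6.89 CPM and at 34.2 against 8.66. Cux2 carriers held less of the summed layer 4 list without Rorb, at 305 against 463 CPM, most of which is Il1rapl2 in cluster 0. Rspo1 of the same list was higher in Cux2 carriers, at 20.1 against 7.70 CPM, so the genes of this list did not share a direction. Slc17a7 carriers of cluster 0 did not stand apart from the other nuclei in the excitatory list without the 9 genes, at 352 against 348 CPM and higher in 8 of 11 libraries. Lef1 and Tcf7l2, of the thalamus list, were raised with Cux2 and Rorb and, on the other side of the division, with Foxp2. Neither was among the 5 marker genes with the largest ratio in Tle4 carriers of cluster 0. Lef1 was at 30.9 against 6.83 CPM in Cux2 carriers, 35.3 against 4.89 in Rorb carriers and 42.9 against 7.30 in Foxp2 carriers, and Tcf7l2 at 45.9 against 17.7, 52.1 against 14.8 and 66.2 against 16.1. The layer list differences and those of Lef1 and Tcf7l2 named here had the same direction in 11 of 11 libraries, and the astrocyte list was higher with Rorb in 10 of 11.

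Carriers of Slc17a6 and Prox1 in cluster 0 also held more of genes of the thalamus list. In Prox1 carriers Lef1 stood at 83.0 against 9.55 CPM and Tcf7l2 at 110 against 20.7. Slc17a6 carriers there held 1086 against 360 CPM of the thalamus list, with Lef1 at 85.9 against 8.98 CPM, and 20.8% of them were called doublets, against 11% of the other nuclei. Prox1 carriers held 133 against 25.7 CPM of Glis3 and 1000 against 219 CPM of Adarb2, a gene of some interneurons, with 1808 against 790 CPM of the inhibitory and 1204 against 441 CPM of the oligodendrocyte list. Called doublets made up 35.0% of these Prox1 carriers and 9.81% of the rest, and the part of doublets in these profiles was not tested. Neurod6 carriers held 553 against 418 CPM of the hippocampal CA1 and CA3 list.

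In cluster 1 the thalamus list marked the carriers of 7 of the 9 genes. It stood at 3319 against 836 CPM for Slc17a6 (the list without Slc17a6), 3210 against 668 for Rorb, 3431 against 936 for Prox1, 2802 against 745 for Foxp2 and 2114 against 884 for Cux2. For Slc17a7 it stood at 2496 against 1268 and for Camk2a at 1696 against 882, each in 11 of 11 libraries. Tle4 and Neurod6 went the other way, at 1235 against 1497 and 1184 against 1410 CPM. Slc17a6 carriers of the cluster held 2415 against 631 CPM of Ntng1, a membrane protein of thalamocortical axons, and 432 against 96.4 of Tcf7l2. Foxp2, read in cortex as a layer 6 gene, went in cluster 1 with 245 against 767 CPM of the layer 4 list without Rorb and with the thalamus list.

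In cluster 2, Foxp2 carriers held 66.1 against 23.1 CPM of Drd1, the dopamine receptor of direct-pathway striatal neurons, and 62.5 against 29.7 of Tac1. Genes of other lists were raised in them as well: Lef1 (21.6 against 9.12 CPM), Adarb2 (428 against 221) and Il1rapl2 (299 against 166). Slc17a7 carriers of that cluster held 160 against 52 CPM of the excitatory list without the 9 genes, with 2938 against 4225 CPM of the striatal list. Rorb carriers of cluster 2 held 702 against 127 CPM of Slc1a2, the glial glutamate transporter, and 935 against 176 CPM of the astrocyte list. Of the Slc17a7 carriers 40.5% were called doublets against 17.8% of the other nuclei, and of the Rorb carriers 54.9% against 12.8%. In cluster 5 Rorb carriers likewise held 2331 against 1258 CPM of the astrocyte list, with 54.2% against 11.6% doublets, and Slc17a7 carriers held 582 against 2268 CPM of the oligodendrocyte precursor list.

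**Figure D3:**
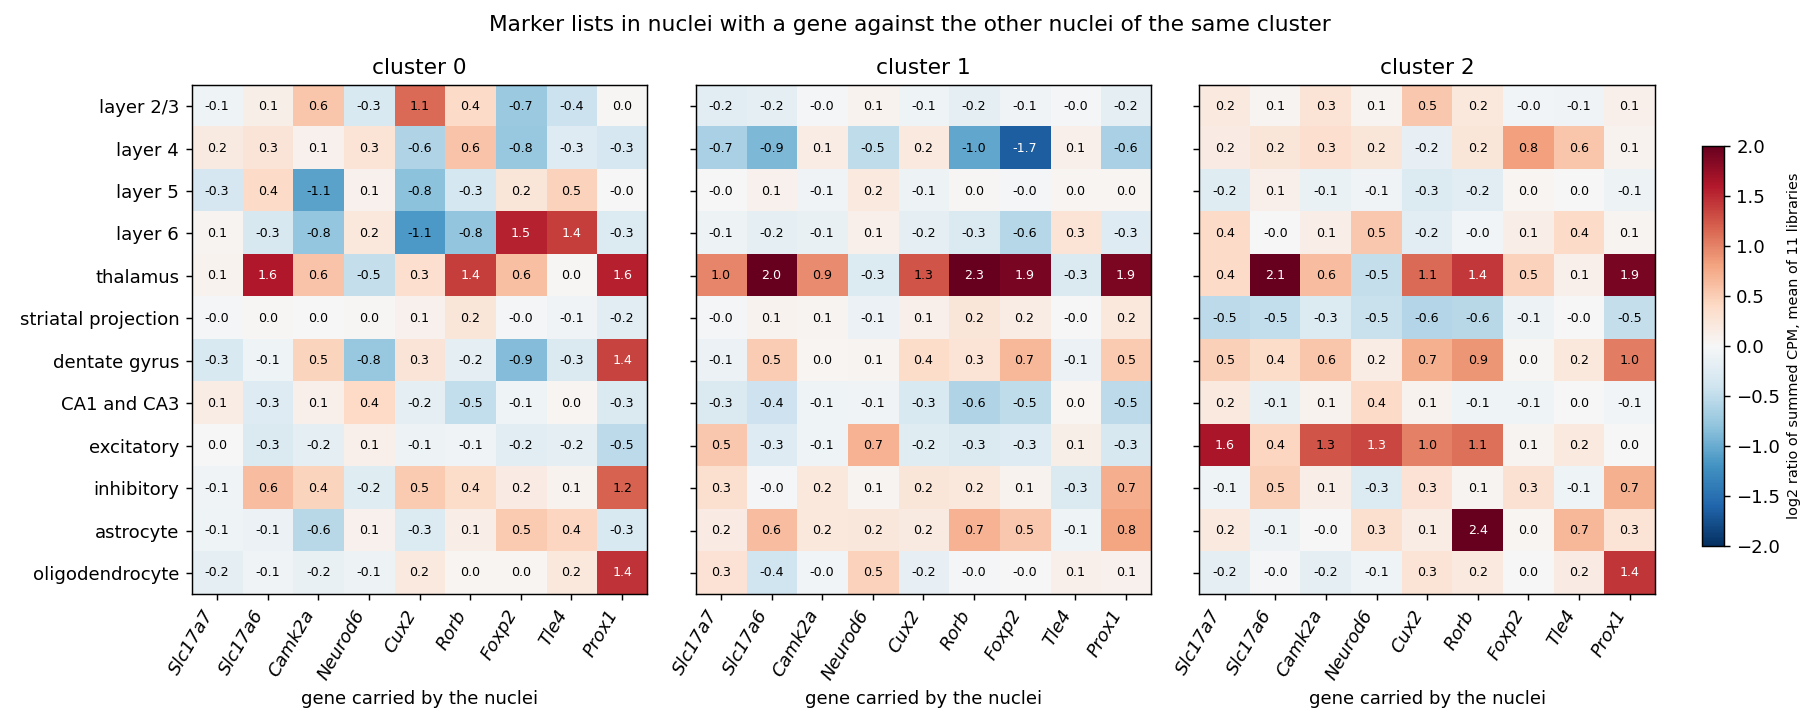
Marker lists, without the 9 genes, in carriers of each gene against the other nuclei of clusters 0, 1 and 2. Each cell is the log2 ratio of the summed CPM as a mean of 11 libraries, with red for higher in carriers. Layer 6 genes are raised with Foxp2 and Tle4 in cluster 0, thalamic genes with Slc17a6, Rorb, Foxp2 and Prox1 in cluster 1, and astrocyte genes with Rorb in cluster 2.

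Whether treatment changed the identity genes was asked by testing each gene in each cluster with edgeR's quasi-likelihood test on counts summed per library. Of 45 pairs of gene and cluster, 44 were tested, since Neurod6 in cluster 9 did not pass the filter on low counts. None of the 44 was called for OTV:Malat1 against ATV:BACE1 at a Benjamini-Hochberg adjusted p under 0.05, where the background over all genes of the 5 clusters was 0.00259% called. None was called for nonTV:Malat1 or Malat1 ASO against ATV:BACE1 (background 0% in both), or for OTV:Malat1 against nonTV:Malat1 or Malat1 ASO (background 0.00259% in both). DESeq2 called 0 in the 5 comparisons, where its background against the control was 0% in nonTV:Malat1 and 0.00259% in Malat1 ASO, and 0.00518% in each comparison of OTV:Malat1. At an unadjusted p under 0.05 there were 8 of the 220 tests, or 3.64%, against 1.46% of all gene tests.

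In the libraries themselves, Slc17a6 in cluster 1 was at 65.4, 57.5 and 63.3 CPM in ATV:BACE1, at 58.0, 72.0 and 58.4 in nonTV:Malat1, at 68.5, 78.1 and 58.3 in OTV:Malat1 (replicates 1, 4 and 5) and at 59.4 and 65.2 in Malat1 ASO (1 and 5). The highest library was OTV:Malat1 replicate 4 and the groups overlapped. Foxp2 in cluster 2 was at 416, 464 and 354 CPM in ATV:BACE1, 460, 460 and 380 in nonTV:Malat1, 438, 503 and 381 in OTV:Malat1 and 477 and 356 in Malat1 ASO. Replicate 5 was the lowest in each group, and the groups overlapped again. Rorb in cluster 5 was at 509, 497 and 470 CPM in ATV:BACE1, 495, 509 and 524 in nonTV:Malat1, 492, 513 and 558 in OTV:Malat1 and 456 and 444 in Malat1 ASO, whose libraries lay below the other 9.

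For the cluster in which each gene was highest, the log2 differences between OTV:Malat1 and ATV:BACE1 were within their standard errors. They were 0.11 (SE 0.157) for Slc17a7 in cluster 0, 0.11 (SE 0.133) for Slc17a6 in cluster 1 and 0.08 (SE 0.152) for Camk2a in cluster 0. They were -0.07 (SE 0.159) for Neurod6 in cluster 0, 0.09 (SE 0.193) for Foxp2 and 0.18 (SE 0.190) for Tle4 in cluster 2. For Rorb in cluster 5 the value was 0.02 (SE 0.109), for Cux2 in cluster 0 it was 0.00 (SE 0.132) and for Prox1 in cluster 9 it was -0.04 (SE 0.176). Over the 44 pairs the values ran from -0.27 to 0.74 with a median of 0.04, beside medians of all genes between -0.01 and 0.01.

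Of the 8 low unadjusted values 7 lay in cluster 9, the smallest cluster with 1968 nuclei, and 3 of the 8 were for Rorb. Over all genes, too, cluster 9 had the largest share at an unadjusted p under 0.05 for OTV:Malat1 against ATV:BACE1, 2.78% against 0.948% to 1.76% in the other clusters. Rorb in cluster 9 stood at 122, 176 and 87.4 CPM in the control replicates 1, 4 and 5 and at 165, 334 and 170 in the same replicates of OTV:Malat1. Each OTV:Malat1 library was above the control of its number, although the groups overlapped. The nonTV:Malat1 libraries, at 166, 214 and 171 CPM, were also above the control of their number, with log2 differences of 0.51 (SE 0.266) from ATV:BACE1 and 0.24 (SE 0.255) for OTV:Malat1 against nonTV:Malat1, each with an edgeR adjusted p of 1.00. The log2 difference between OTV:Malat1 and ATV:BACE1 was 0.74 (SE 0.262, edgeR adjusted p = 1.00), and with the replicate number as a block it was 0.72 (SE 0.137, adjusted p = 0.0126), the 1 call among the identity genes with the block. Without OTV:Malat1 replicate 4, the library at 334 CPM, the log2 difference without the block was 0.31. The background with the block was 0.022% of all genes called over the 5 clusters, 0.00778% being lower, and 0.074% in cluster 9 alone. In the other comparisons 0 identity genes were called with the block, where the background against the control was 0% in nonTV:Malat1 and 0.0998% in Malat1 ASO. It was 0.00778% in the comparison of OTV:Malat1 with nonTV:Malat1, and 0.00648%, or 0.00389% lower, in that with the free oligonucleotide. Slc17a6 in cluster 9 was at 42.4, 43.1 and 23.8 CPM in ATV:BACE1 and at 65.4, 68.2 and 38.4 in OTV:Malat1, again higher in each pair with overlapping groups, and its log2 difference was 0.60 (SE 0.253, edgeR adjusted p = 1.00). That value was 0.36 without ATV:BACE1 replicate 5 and 0.09 with called doublets left out. Ntng1, of the thalamus list, was also called in cluster 9 under the block, with a log2 difference of 0.58 (edgeR adjusted p = 0.0093).

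Read without a model, the OTV:Malat1 libraries did not overlap the ATV:BACE1 libraries in 3 of 45 pairs, beside 4.6% of all genes with at least 100 UMIs. Cux2 in cluster 9 was at 135, 125 and 138 CPM in ATV:BACE1 and 173, 147 and 144 in OTV:Malat1. Prox1 in cluster 5 was at 32.6, 33.6 and 35.0 against 37.5, 37.2 and 43.3 CPM, and Camk2a in cluster 5 at 367, 372 and 343 against 313, 326 and 335. The first and second were higher and the third lower in OTV:Malat1, and the adjusted p was 1.00 for each of the 3 in edgeR's test. The marker lists were tested in the same fits: of 524 tests of a marker gene in a cluster, 0 were called by edgeR in any of the 5 comparisons, with 9 to 30 at an unadjusted p under 0.05.

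Malat1 was then read in the nuclei that carry the identity genes. Of the UMIs of Slc17a7 carriers, Malat1 made up 7.87%, 7.68% and 8.81% in the control libraries 1, 4 and 5, and in the same replicates of OTV:Malat1 it made up 5.29%, 4.10% and 5.23%. Every OTV:Malat1 library was below every control library, and the mean was 60.0% of the control. In Slc17a6 carriers the shares were 6.41%, 6.38% and 7.23% against 4.24%, 3.26% and 4.28%, a mean of 58.8% of the control. The mean shares in Slc17a7 carriers were 8.12% ± 0.602 in ATV:BACE1 (SD, n = 3), 8.29% ± 0.594 in nonTV:Malat1 (n = 3), 4.87% ± 0.669 in OTV:Malat1 (n = 3) and 8.35% ± 0.334 in Malat1 ASO (n = 2). In Slc17a6 carriers they were 6.67% ± 0.486, 6.64% ± 0.706, 3.93% ± 0.577 and 6.58% ± 0.031 in the same order. The lower share of Malat1 in Slc17a6 carriers than in Slc17a7 carriers was present in all 4 groups.

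The same separation was found for the other genes. The means of OTV:Malat1 were 56.7% of the control in Rorb carriers (7.53%, 7.39% and 8.48% against 4.72%, 3.73% and 4.82%), 57.2% in Prox1 carriers, 59.2% in Cux2 carriers and 59.8% in Neurod6 carriers. They were 63.0% in Camk2a, 64.5% in Tle4 and 67.2% in Foxp2 carriers (7.25%, 7.34% and 8.22% against 5.45%, 4.49% and 5.40%). The 3 sets with the most Malat1 left were those with the largest shares of cluster 2 nuclei, 21.8%, 30.4% and 38.9%. All nuclei of the 5 clusters together kept 63.2%, close to the Camk2a carriers. The part of cluster 2 in this order was not tested. The libraries of nonTV:Malat1 and Malat1 ASO overlapped the control in every set. Non-overlap with lower values in OTV:Malat1 held in 9 of 9 carrier sets, beside 0.971% of all genes, and the exact two-sided permutation p was 0.1 in each, the smallest that 3 libraries against 3 can give.

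In edgeR's test adjusted over all genes, Malat1 was called in 1 of the 9 sets for OTV:Malat1 against ATV:BACE1 (background 0.000632% called). The background shares count every gene, Malat1 included. In this comparison the 1 call among 158320 gene tests was that of Malat1, as were the 9 calls in DESeq2. The set called by edgeR was the Prox1 set, at a log2 difference of -0.84 (SE 0.113, adjusted p = 0.0358). That call did not hold without any of 9 of the 11 libraries in turn, with adjusted p from 0.0984 (without Malat1 ASO replicate 1) to 1.00 (without ATV:BACE1 replicate 5), and held without ATV:BACE1 replicate 1 or 4. With each of the 11 libraries left out, the log2 difference in the Prox1 set ran from -0.91 to -0.78. The log2 differences in the other sets were -0.78 (SE 0.137) for Slc17a7, -0.81 (SE 0.122) for Slc17a6, -0.71 for Camk2a and -0.79 for Neurod6. They were -0.80 for Cux2, -0.86 for Rorb, -0.60 for Foxp2 and -0.66 for Tle4, with unadjusted p from 8.26e-06 to 0.00179. With the replicate block 7 of 9 sets were called (background 0.0101%, or 0.00632% lower), all but Camk2a (adjusted p = 0.0574) and Foxp2 (adjusted p = 0.108), and DESeq2 called 9 of 9 (background 0.00568%). Against nonTV:Malat1, 1 set was called (background 0.000632%), and against Malat1 ASO 0 were (background 0%). Those counts were 6 and 5 with the block (background 0.00379% in both), and 9 each in DESeq2 (background 0.00568% in both). For nonTV:Malat1 and Malat1 ASO against the control 0 sets were called by edgeR, with or without the block, and by DESeq2. The background for nonTV:Malat1 was 0%, or 0.000632% with the block, and for Malat1 ASO it was 0%, 0.0777% with the block (0.0133% lower) and 0.00632% in DESeq2.

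The carrier sets share nuclei, whereas the transmitter classes do not. Nuclei with Slc17a7 and no other transmitter gene kept 59.9% of the control share of Malat1 in OTV:Malat1, nuclei with Slc17a6 alone 58.1%, and nuclei with Gad1 or Gad2 alone 67.8%. The log2 differences were -0.79 (SE 0.136), -0.83 (SE 0.112) and -0.59 (SE 0.152). In edgeR the Slc17a6 class was called (adjusted p = 0.0104, background 0.00213%) and the others had an adjusted p of 1.00, while with the replicate block the adjusted p was 0.00036 for the Slc17a7 class, 3.88e-06 for the Slc17a6 class and 0.132 for the Gad class. The background without the block was this same call, 1 of 47014 gene tests. The call of the Slc17a6 class was lost without OTV:Malat1 replicate 1 (log2 -0.85, adjusted p = 0.175), OTV:Malat1 replicate 4 (-0.73, adjusted p = 0.237) or ATV:BACE1 replicate 5 (-0.78, adjusted p = 0.232).

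The difference between the classes was tested as an interaction with the library as a block. The change of Malat1 in the Slc17a7 class minus that in the Slc17a6 class was 0.03 (SE 0.076, edgeR adjusted p = 1.00), so a difference between these 2 classes was not detected. The classes can rest on single UMIs, and how well they separate cortical from thalamic neurons was not tested. Of the Slc17a6 class 24.4%, 3.83% and 4.98% lay in clusters 0, 2 and 5, where detection of Slc17a6 was not clear of the glial background. All Slc17a6 carriers of these clusters, other transmitter genes allowed, held more Lef1 than the rest in 11 of 11 libraries. The values were 85.9 against 8.98, 116 against 10.1 and 146 against 23.0 CPM, and 20.8%, 44.8% and 64.8% of these carriers were called doublets. The Slc17a7 class minus the Gad class was -0.20 (SE 0.076) and the Slc17a6 class minus the Gad class -0.24 (SE 0.076), both with an edgeR adjusted p of 1.00. Before adjustment over all genes the p-values of the same edgeR test were 0.0115 and 0.0039. Cluster 2 held 37.5% of the Gad class, against 4.77% of the Slc17a7 and 3.83% of the Slc17a6 class. The part of cluster 2 in these differences was not tested.

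**Figure D4:**
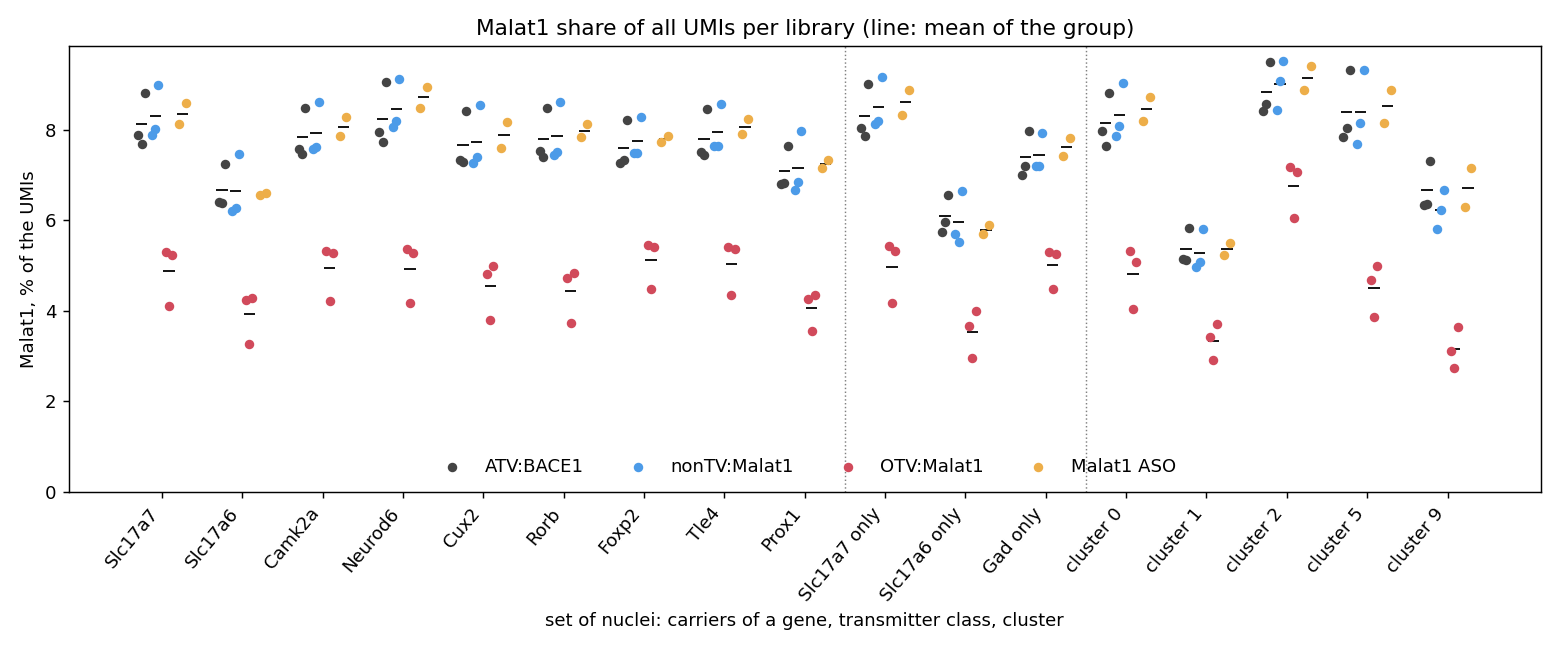
Malat1 as a percentage of all UMIs in carriers of each gene, in the transmitter classes and in the 5 clusters. Each point is a library, coloured by group, and the line is the mean of the group. OTV:Malat1 lies below the other groups in every set, and as a share of the control most is left in cluster 2 (76.6%).

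By cluster, Malat1 in OTV:Malat1 was 59.1% of the control in cluster 0, 62.4% in cluster 1, 76.6% in cluster 2, 53.8% in cluster 5 and 47.5% in cluster 9. Interaction tests called 3 of the 10 pairs of clusters in edgeR (background 0.00157%). These 3 calls were all that the background held, over 191490 gene tests. The log2 change in cluster 0 minus that in cluster 2 was -0.42 (adjusted p = 0.0331), cluster 2 minus cluster 5 was 0.58 (adjusted p = 3.31e-05) and cluster 2 minus cluster 9 was 0.74 (adjusted p = 2.87e-08). The excitatory cluster 0 and cluster 1 differed by -0.08 (SE 0.077, adjusted p = 1.00). With called doublets left out 1 of the 10 pairs was called, although cluster 2 still kept the most Malat1. Nuclei with and without Camk2a then kept 80.6% and 82.4% of the control in cluster 2 and 59.6% and 57.9% in cluster 0. They kept 62.6% and 63.3% in cluster 1, 54.9% and 60.6% in cluster 5 and 43.5% and 49.4% in cluster 9.

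To separate the gene carried from the cluster, carriers were compared with the other nuclei of the same cluster, in 41 pairs of gene and cluster with at least 20 carriers in every library. This comparison was chosen after the values above had been seen. In cluster 0 the carriers of Slc17a7 kept 59.0% of the control share and the other nuclei 59.1%, and the carriers of Camk2a, Neurod6, Cux2, Foxp2 and Tle4 kept 58.7% to 59.7%. Carriers of Rorb, Slc17a6 and Prox1 kept less, 54.5%, 54.3% and 56.7%, beside 62.1%, 59.5% and 59.3% in their other nuclei. For Prox1 the replicate numbers had no common direction, and with called doublets left out its carriers kept 58.4% against 59.8%. In edgeR's interaction test 3 of the 41 pairs were called (background 0.00322%), Rorb in clusters 0 and 2 and Cux2 in cluster 1. That background was 19 calls over all genes, these 3 included.

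Rorb carriers of cluster 0 had 8.08%, 7.54% and 8.66% Malat1 in the control replicates 1, 4 and 5 and 4.93%, 3.68% and 4.62% in OTV:Malat1. The other nuclei of the cluster had 7.90%, 7.73% and 8.93% against 5.53%, 4.29% and 5.45%. In the controls the carriers were above the rest in 1 of 3 libraries, and in OTV:Malat1 they were below the rest in 3 of 3, so that they kept 54.5% against 62.1% in the rest. The interaction was -0.20 (log2, SE 0.034, edgeR adjusted p = 0.0221). With called doublets left out it was -0.24 (adjusted p = 7.49e-05), so it was as large without them. It stayed called without OTV:Malat1 replicate 1, ATV:BACE1 replicate 5 or nonTV:Malat1 replicate 5. It was lost without each of the other 8 libraries, with values from -0.21 to -0.17 and adjusted p from 0.0548 to 0.61.

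Rorb carriers of cluster 2 had 8.53%, 8.5% and 9.60% Malat1 in ATV:BACE1 and 6.24%, 5.40% and 6.39% in OTV:Malat1, and the other nuclei 8.37%, 8.58% and 9.44% against 7.45%, 6.29% and 7.47%. They kept 67.7% against 80.4%, an interaction of -0.26 (SE 0.045, edgeR adjusted p = 0.0146). This pair was not called with doublets left out (-0.18, adjusted p = 1.00, 73.6% against 82.1%). It was also not called without ATV:BACE1 replicate 1 (-0.25, adjusted p = 0.0874), OTV:Malat1 replicate 1 (-0.24, 0.804), OTV:Malat1 replicate 4 (-0.26, 0.189) or ATV:BACE1 replicate 5 (-0.25, 0.407). Doublets made up 54.9% of these carriers, which also held more of the astrocyte list, as given above, and the part of astrocyte RNA in the result was not tested.

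Cux2 carriers of cluster 1 had 5.43%, 5.26% and 6.09% Malat1 in ATV:BACE1 and 3.33%, 2.73% and 3.39% in OTV:Malat1, and the other nuclei 4.90%, 5.02% and 5.66% against 3.50%, 3.05% and 3.85%. Carriers were thus above the rest in the control libraries and below them in the OTV:Malat1 libraries. They kept 56.4% against 66.7%, an interaction of -0.26 (SE 0.049, edgeR adjusted p = 0.0203), and -0.26 with doublets left out (adjusted p = 0.0108). Doublets were 4.89% of these carriers and 2.08% of the rest. The call was lost without ATV:BACE1 replicate 1 (-0.24, adjusted p = 0.46), OTV:Malat1 replicate 4 (-0.24, 0.323), ATV:BACE1 replicate 5 (-0.25, 0.0949), nonTV:Malat1 replicate 5 (-0.26, 0.0601) or OTV:Malat1 replicate 5 (-0.24, 0.2). Carriers of Slc17a7, Slc17a6, Rorb, Foxp2 and Prox1 in the same cluster held more of the thalamus list than the Cux2 carriers. They kept 59.2%, 63.6%, 60.5%, 63.5% and 59.8% of the control, beside 61.9% to 63.1% in their other nuclei, and were not called. Slc17a7 and Prox1 carriers kept less than their other nuclei in each replicate number, and the others had no common direction. The part of thalamic identity in the Cux2 result was not tested. The inhibitory list was at 3698 against 3115 CPM in the Cux2 carriers, with Kcnc2 at 1476 against 740. Kcnc2 thus rose by more than the whole list, and the other genes of the list together were lower in these carriers.

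In cluster 2 the carriers of 7 of the 9 genes kept less Malat1 than the other nuclei in each of the 3 replicate numbers, and none kept more in all 3. Beside Rorb these included Cux2 (69.5% against 79.5%), Prox1 (65.2% against 77.8%), Neurod6 (66.6% against 77.4%) and Slc17a7 (71.5% against 78.2%), none of them called. Foxp2 carriers of the cluster, which held more of the striatal genes Drd1 and Tac1, kept 76.8% against 76.1%. With called doublets left out the gap was smaller for Cux2 (74.8% against 82.6%) and Prox1 (72.2% against 81.1%), and Slc17a7 carriers kept 75.0% against 82.0%. Of the 7 genes that could then be compared, carriers kept less in all 3 replicate numbers for 5, Camk2a had no common direction, and Foxp2 carriers kept more in all 3 (81.8% against 78.8%). In cluster 5 Rorb carriers kept 50.9% against 63.0%, an interaction of -0.35 (SE 0.132, edgeR adjusted p = 1.00). With called doublets left out they kept 48.3% against 69.4%, and the interaction was -0.57 (SE 0.120, edgeR adjusted p = 0.465). In cluster 9 carriers of the 6 genes with enough nuclei kept 46.0% to 49.6%.

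**Figure D5:**
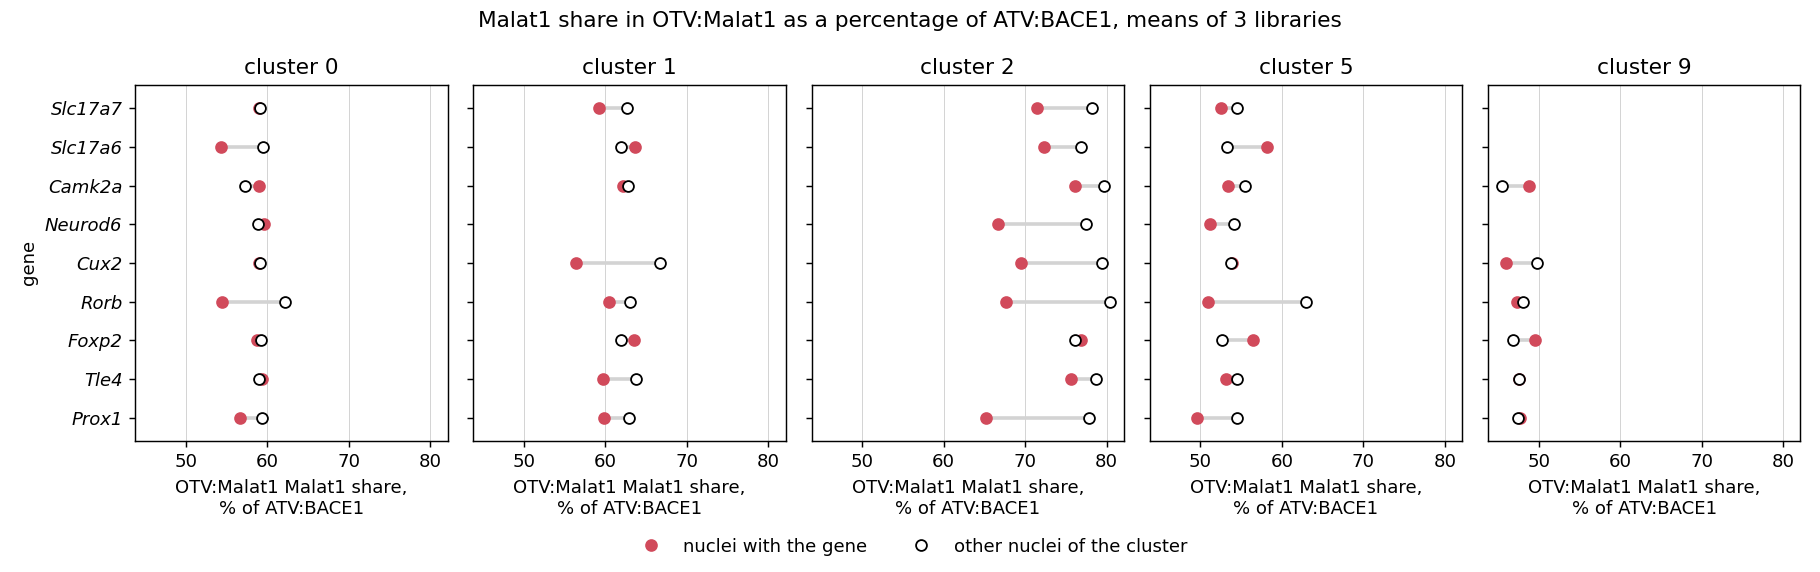
Malat1 share in OTV:Malat1 as a percentage of ATV:BACE1 (means of 3 libraries each) in carriers of each gene (filled) and in the other nuclei of the same cluster (open). Pairs with fewer than 20 carriers in a library are not drawn. In cluster 0 the points lie together except for Rorb (54.5% against 62.1%) and, without a call in the interaction test, Slc17a6 and Prox1. In cluster 1 Cux2 is apart (56.4% against 66.7%), and in cluster 2 most carriers lie to the left of the other nuclei.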

How the data were processed

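Single-nucleus counts of 11 libraries were analysed. The authors deposited whole-number UMI counts per gene and nucleus, with cluster, class and doublet calls, per the file headers. The deposited metadata also give the percent of mitochondrial UMIs per nucleus, not used in a test. The submitters' processing notes name Cell Ranger 5.0.0, Seurat 4 and mm10, with no further settings given in the sources used here. Counts were summed per library over the nuclei of a cluster, carrier set or transmitter class, and tested with edgeR 4.0.16 (glmQLFTest, TMM, filterByExpr) in R 4.3.3 with limma 3.58.1, all 4 groups in a fit. P-values were adjusted by Benjamini-Hochberg over all genes of a fit. Depth ran from 28911428 to 37701355 UMIs per library. Scripts were tested on simulated data. Alternatives included DESeq2 1.42.0, other filters, thinning with numpy 2.4.6, and a replicate block. Libraries with the same number deviated together (r 0.39 to 0.708 over 15 pairs, against -0.593 to 0.275 over 30 pairs of different numbers), and the number marks a batch in the metadata. The genes named are the 9 identity genes, Malat1, Gad1 and Gad2, the 5 genes most raised in carriers (at least 50 CPM) and the 3 highest of a marker list. Some genes that this rule names are not reported here. The marker genes compared in carriers inside a cluster (the 5 with the largest ratio, at least 20 CPM), Dsp and C1ql2, and the comparison inside clusters were chosen after values were seen. Genes and lists were chosen with earlier results of these data known. Doublets were kept. Malat1 ASO replicate 4 was not analysed here.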

Additional observations from a re-analysis of the deposited data

Results flagged for a closer look

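Clusters differed in how far Malat1 changed in OTV:Malat1 against ATV:BACE1, on the log2 scale by -0.42 for cluster 0 minus cluster 2, by 0.58 for cluster 2 minus cluster 5 and by 0.74 for cluster 2 minus cluster 9, each past the threshold in edgeR's interaction test. Cluster 2 is the cluster with the highest Foxp2 and Tle4 and the striatal markers. Within clusters, the change in carriers of a gene minus that in the other nuclei was -0.26 for Cux2 in cluster 1, -0.20 for Rorb in cluster 0 and -0.26 for Rorb in cluster 2, and these also passed the interaction test. With called doublets left out, 1 of the 10 cluster pairs was called, although cluster 2 still kept the most Malat1. Nuclei with and without Camk2a then kept 80.6% and 82.4% of the control in cluster 2, against 59.6% and 57.9% in cluster 0. Rorb in cluster 2 was not called without doublets (-0.18, edgeR adjusted p = 1.00). The call of Rorb in cluster 0 was lost without 8 of the 11 libraries in turn. That of Cux2 in cluster 1 was lost without 5 and that of Rorb in cluster 2 without 4.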

How the results depend on the processing

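Of the 9 carrier sets, those in which Malat1 was called for OTV:Malat1 numbered 1, 1 and 0 in the comparisons with ATV:BACE1, with nonTV:Malat1 and with Malat1 ASO. In the same order they were 4, 4 and 3 with total counts without TMM, 9, 9 and 9 in DESeq2, 5, 6 and 4 with no filter on low counts, and 7, 6 and 5 with the replicate block. They were 3, 3 and 3 for carriers of at least 2 UMIs and also for carriers called at 1000 UMIs, and 0, 0 and 0 among nuclei with at least 1000 UMIs. With called doublets left out they were 0, 1 and 0, and with Malat1 left out of the library size 1, 1 and 1. Leaving out each library in turn gave 0 to 2, 0 to 3 and 0 to 2. The log2 differences from ATV:BACE1 moved less than these counts. Over the 21 alternatives they ran from -0.92 to -0.77 in Rorb carriers, -0.85 to -0.69 in Slc17a7 carriers and -0.66 to -0.53 in Foxp2 carriers. Identity genes called for OTV:Malat1 against ATV:BACE1 went from 0 to 1 with the replicate block, and stayed at 0 in the other alternatives. Malat1 in the Slc17a7 class was called in DESeq2 (-0.79) and with the block (-0.79), and in the Gad class in DESeq2 (-0.59). In the Slc17a6 class, leaving out libraries gave -0.91 to -0.73. Cluster pairs called were 1 without doublets, where cluster 2 still kept the most Malat1, and 2 to 4 when a library was left out. Against ATV:BACE1 the pairing by replicate number changed no other call among the identity genes and transmitter classes. The block also brought the Slc17a7 class past the threshold in the comparisons with nonTV:Malat1 (-0.83) and Malat1 ASO (-0.81), and the Slc17a6 class in that with Malat1 ASO (-0.69). The difference between the Slc17a7 and Slc17a6 classes, 0.03, turned to -0.03 without doublets, -0.06 with carriers called at 1000 UMIs and -0.01 without OTV:Malat1 replicate 1, and was never called. No called result changed direction. The interaction fits hold the library as a block, which contains the replicate number. Single UMIs, which made most carriers of Neurod6, Slc17a6, Prox1, Slc17a7, Tle4 and Cux2, limit what an absent gene shows, and Prox1 and Slc17a6 in cluster 9 rest on few nuclei per library.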
